A study of Mus musculus with 8 samples.

Results

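The genes described here are 10 genes of ferroptosis and iron handling in the mouse kidney: Tfrc, Fth1, Ftl1, Ncoa4, Hmox1, Slc7a11, Slc3a2, Gpx4, Aifm2 and Acsl4. They were taken by symbol from a table of 34745 genes, in which each of the 10 symbols was found. All 10 passed the filter on low counts, which kept 16576 genes for testing. Slc7a11 did so only through the groups in which it was high. Messenger RNA of whole renal tissue from WT mice was sequenced at day 14 in 3 groups, sham (n = 2), uIRI (n = 3) and uIRI+MSC (n = 3). Kidney researchers use uIRI for a unilateral ischaemia-reperfusion injury (blood flow to 1 kidney is stopped and then restored) and MSC for mesenchymal stromal cells. Neither term is written out in the labels, and the sources used here give no strain or age for the mice and no source, dose or timing for the cells. Whether replicate libraries came from different mice is not stated, so p-values here reflect the spread between libraries, which may be technical.

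Ferroptosis is a form of cell death in which iron drives the peroxidation of polyunsaturated phospholipids in cell membranes. Iron enters cells bound to transferrin, is stored in ferritin shells, and is set free again when ferritin is degraded or when haem is broken down. Cells limit the damage by importing cystine for glutathione, which feeds the lipid peroxidase GPX4, and by a separate defence based on reduced ubiquinone. The tubule epithelium of the kidney, which takes up filtered transferrin and is rich in mitochondria, is a tissue in which this form of death has often been studied after ischaemia.

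Of the 10 genes, 3 carry an iron-responsive element that could be found in their untranslated regions, and these are shown because they are the elements through which iron is known to set ferritin and transferrin receptor output. Iron regulatory proteins bind the element when iron is scarce. Bound in the 5′ UTR they block translation of the messenger, and bound in the 3′ UTR they protect it from decay. The search asked for a C, any 5 bases, the loop CAGTGN with a last base other than G, and 5 bases that pair with the first 5 with G:T pairs allowed, on the sense strand of GENCODE M21 transcripts (GRCm38). It is met in 123 of 21901 coding genes (0.562%). Each element is written as DNA from 5′ to 3′ with the loop in capitals.
Fth1, 5′ UTR, chr19:9982732-9982760, plus strand: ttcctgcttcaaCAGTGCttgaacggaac
Ftl1, 5′ UTR, chr7:45459779-45459807, minus strand: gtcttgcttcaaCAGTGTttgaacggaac
Tfrc, 3′ UTR, chr16:32631219-32631247, plus strand: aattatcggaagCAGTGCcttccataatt
Tfrc, 3′ UTR, chr16:32631598-32631626, plus strand: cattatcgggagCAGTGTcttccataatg
Tfrc, 3′ UTR, chr16:32631663-32631691, plus strand: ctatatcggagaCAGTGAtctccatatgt
Tfrc, 3′ UTR, chr16:32631710-32631738, plus strand: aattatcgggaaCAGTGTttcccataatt
This search found 1 element each in Fth1 and Ftl1, and 4 in Tfrc. It misses any element that departs from its pattern, so these numbers may be too low. Among 87 other scanned genes of the pathway the search found an element only in Slc40a1, which encodes the iron exporter ferroportin, at chr1:45925465-45925493 on the minus strand (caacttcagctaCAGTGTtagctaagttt). A match is a description of the letters and says nothing about binding in these kidneys, and messenger counts do not measure translation.

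Levels are given as CPM, counts relative to the total of the library, scaled with TMM factors, and changes as log2 differences with their SE from edgeR's quasi-likelihood test, adjusted by the Benjamini-Hochberg method over all tested genes and called at 0.05. In uIRI against sham, 7 of the 10 genes passed, where 54.6% of all tested genes did. Slc7a11 was higher, and Tfrc, Fth1, Gpx4, Hmox1, Ncoa4 and Slc3a2 were lower (the last 3 not with library size alone), while 28.3% of all genes were higher and 26.3% lower. The libraries of these groups did not overlap for 8 of the 10, against 77.1% of all genes. The median log2 change of the 10 was -0.63, beside 0.061 over all tested genes. These directions depend in part on the scaling: with library size alone the median of all genes moved to 0.73, and 5 of the 10 passed (66.6% of all genes), with Slc7a11 and Aifm2 higher (54.6% of all genes) and Tfrc, Fth1 and Gpx4 lower (12%).

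**Figure D1:**
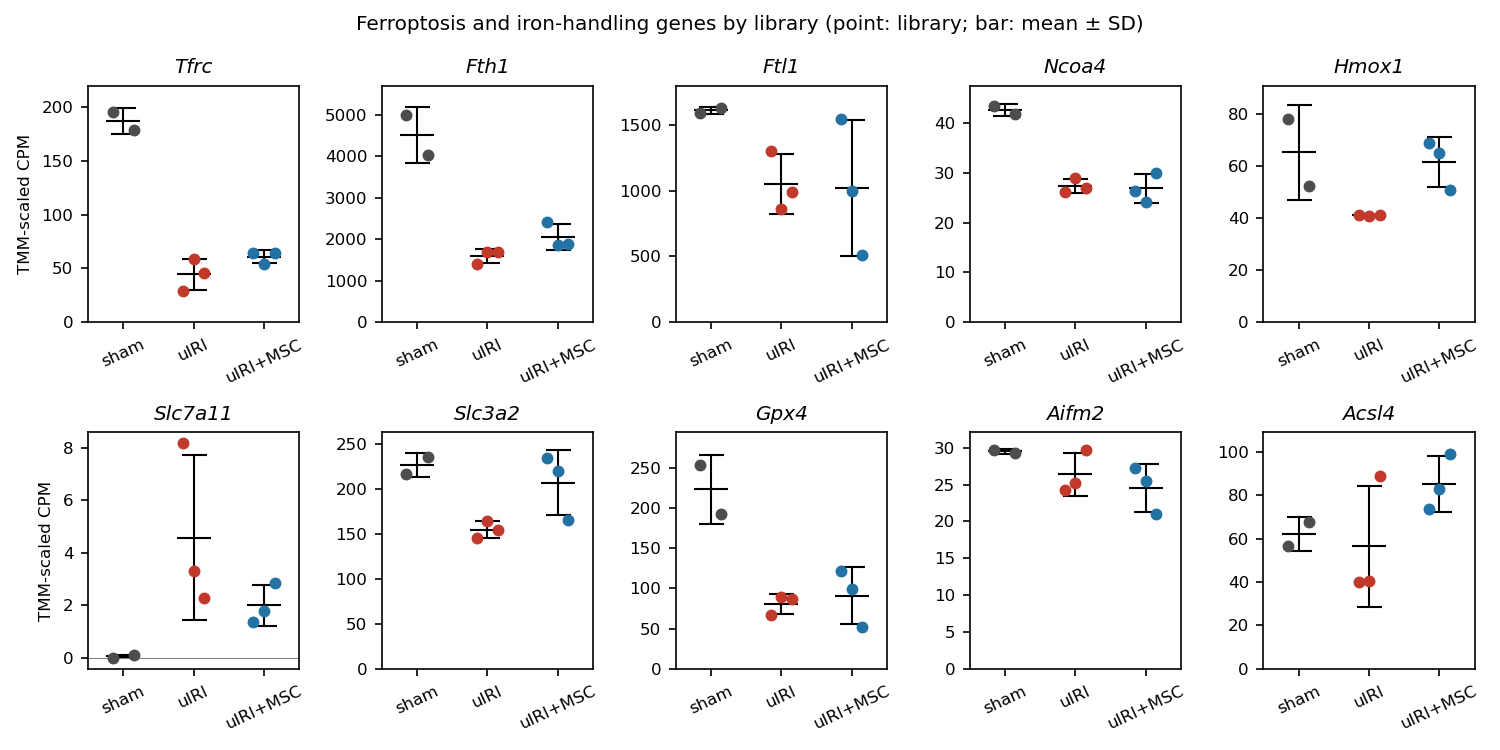
TMM-scaled CPM (linear axis from 0, or from just below 0 for Slc7a11) of each of the 10 genes, with 1 point per library and the mean ± SD of each group (sham n = 2, uIRI and uIRI+MSC n = 3). On this scaling the sham points of Tfrc, Fth1, Ftl1, Gpx4 and Ncoa4 lie above every point of both other groups, and those of Slc7a11 lie below them; with library size alone the log2 changes of Ftl1 and Ncoa4 in uIRI were 0.058 and 0.031.

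Tfrc (ENSMUSG00000022797, chr16:32608920-32632794, plus strand) encodes transferrin receptor 1, the main route of iron import. It stood at 195 and 179 CPM in sham 1 and 2, at 29.5, 58.5 and 45.7 in uIRI 1, 2 and 3, and at 64.8, 54.1 and 64.2 in uIRI+MSC 1, 2 and 3. Both sham libraries were far above all 6 others. The change in uIRI against sham was -2.07 ± 0.25 (adjusted p = 0.000229), or 4.20-fold lower, and it remained lower with library size alone (-1.41). Against sham, the value for uIRI+MSC was -1.61 ± 0.25 (adjusted p = 0.00134). The uIRI+MSC libraries overlapped those of uIRI, with a difference of 0.45 ± 0.23 that did not pass (adjusted p = 0.294). The 4 iron-responsive elements that the search found in Tfrc, printed above, lie in a messenger that was thus less abundant in both injured groups.

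Ferritin is built of heavy and light subunits, and the heavy subunit carries the ferroxidase activity that makes iron safe to store. Fth1 (ENSMUSG00000024661, chr19:9982703-9985092, plus strand), the heavy subunit, stood at 4981 and 4027 CPM in sham, at 1406, 1700.4 and 1685 in uIRI, and at 2406, 1867 and 1894 in uIRI+MSC. Sham was highest, uIRI lowest and uIRI+MSC between them, with no overlap between any of the groups. Fth1 was 2.82-fold lower in uIRI than in sham, a log2 change of -1.50 ± 0.22 (adjusted p = 0.000564), and 2.19-fold lower in uIRI+MSC than in sham, -1.13 ± 0.22 (adjusted p = 0.00375). Both stayed lower with library size alone (-0.83 and -0.61). The step from uIRI to uIRI+MSC, 0.36 ± 0.20, did not pass (adjusted p = 0.335).

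Ftl1 (ENSMUSG00000050708, chr7:45457944-45459884, minus strand) encodes the light subunit, which helps form the iron core. Its libraries were at 1592 and 1628 CPM in sham, 1298, 858 and 992 in uIRI, and 1542, 998 and 509 in uIRI+MSC. Sham lay above every other library, but uIRI+MSC 1 came close to it and uIRI+MSC 3 was the lowest of all 8. Neither change against sham passed, with -0.62 ± 0.40 in uIRI (adjusted p = 0.214) and -0.66 ± 0.39 in uIRI+MSC (adjusted p = 0.207), and with library size alone the first was 0.058. Without uIRI+MSC 1, Ftl1 was lower in uIRI+MSC than in sham (-1.10, adjusted p = 0.044). Between uIRI+MSC and uIRI the difference was -0.046 ± 0.36 (adjusted p = 0.959), and its sign turned without uIRI 1 (0.13) or without uIRI+MSC 3 (0.29). Of the ferritin-like copies in the table, Ftl2-ps had 16 counts and Fth-ps2 had 3 over all libraries, against 173917 for Ftl1 and 325042 for Fth1. The sources used here do not say how reads shared with such copies were handled.

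Ncoa4 (ENSMUSG00000056234, chr14:32159865-32179855, plus strand) encodes the receptor that carries ferritin to the lysosome for degradation. Sham stood at 43.4 and 41.8 CPM, uIRI at 26.2, 29.0 and 27.0, and uIRI+MSC at 26.4, 24.2 and 30.1. Both injured groups shared 1 narrow range below sham. Ncoa4 was lower in uIRI (-0.64 ± 0.13, adjusted p = 0.00369) and in uIRI+MSC (-0.67 ± 0.13, adjusted p = 0.00464) than in sham, but with library size alone these were 0.031 and -0.15 and neither passed. The difference between uIRI+MSC and uIRI was -0.029 ± 0.12 (adjusted p = 0.918), with its sign turned without uIRI 2 (0.011) or without uIRI+MSC 2 (0.040).

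Hmox1 (ENSMUSG00000005413, chr8:75093591-75100596, plus strand) encodes haem oxygenase 1, which opens the haem ring and releases its iron. It stood at 78.3 and 52.6 CPM in sham, at 41.4, 41.0 and 41.2 in uIRI, and at 68.8, 65.3 and 50.9 in uIRI+MSC. The 3 uIRI libraries were nearly identical (41.2 ± 0.192, SD) and below all 5 others. The change in uIRI against sham was -0.67 ± 0.19 (adjusted p = 0.0165). It did not pass without sham 1 (-0.33, adjusted p = 0.231) and was 0.012 with library size alone. All uIRI+MSC libraries exceeded all uIRI libraries, by 0.58 ± 0.17, which did not pass (adjusted p = 0.13 with edgeR and 0.0568 with DESeq2). Against sham, uIRI+MSC differed in Hmox1 by -0.084 ± 0.19 (adjusted p = 0.75), with the sign turned with library size alone (0.44), without sham 1 (0.27) or without uIRI+MSC 3 (0.070).

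Slc7a11 (ENSMUSG00000027737, chr3:49892526-50443614, minus strand) encodes xCT, the light chain that gives the cystine-glutamate antiporter its transport activity. It had 0 and 1 counts in sham 1 and 2, 243, 90 and 48 in uIRI 1, 2 and 3, and 32, 25 and 34 in uIRI+MSC 1, 2 and 3. In CPM these were 0 and 0.0921, then 8.18, 3.30 and 2.26, then 1.34, 1.79 and 2.86. All 6 injured libraries were above sham, uIRI 1 was the highest, and uIRI and uIRI+MSC overlapped.

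Summed over libraries and corrected for depth and TMM factors, Slc7a11 was 103 times as high in uIRI as in sham (exact 95% Poisson interval 18.4 to 4081, from 381 counts against 1). In uIRI+MSC it was 38.7 times as high as in sham (6.77 to 1544, from 91 against 1). These intervals cover counting error only. The library uIRI 1 held 243 of the 381 counts, and without it the first ratio was 60.2 (10.6 to 2394, from 138 counts). Without sham 1 the ratios were 52.9 (9.44 to 2095) and 19.9 (3.47 to 793), and without sham 2 there is no ratio, since sham 1 had 0 counts. Leaving out libraries here was chosen after seeing the data. Slc7a11 passed the filter on low counts only through the uIRI and uIRI+MSC libraries, so its calls against sham are no independent support. It was called higher by edgeR in uIRI (adjusted p = 0.00135) and in uIRI+MSC (adjusted p = 0.00807). The second call was lost without sham 1 (adjusted p = 0.0643). The fitted log2 changes, 6.42 ± 1.10 and 5.19 ± 1.18, rest on that count too and are no bound; the first ran from 5.57 to 9.50 when 1 library was left out. The fitted difference of uIRI+MSC from uIRI was -1.23 ± 0.53 (adjusted p = 0.236) and ran from -1.56 to -0.51 when 1 library was left out.

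A stretch of the Slc7a11 promoter is shown because Slc7a11 was the gene of the 10 with the highest change and because ATF4, a stress-induced factor, is known to act on this gene through paired amino acid response elements. In the RefSeq promoter of 250 bases before to 50 after the start (GRCm38.p6), the motif TGATGNAA was searched on both strands, and both matches are in capitals.
Slc7a11, chr3:50443652-50443681, minus strand: gcTGATGCAAacctggagaatTTGCATCAt
The matches lie on opposite strands, beginning 66 and 47 bases before the start, and do not overlap. Of 32851 RefSeq promoters of this length, 1304 (3.97%) hold at least 1 match and 23 (0.07%) hold 2 or more. Promoter entries were found for 9 of the 10 genes, all but Hmox1, and none of the other 8 held the motif. The core of the antioxidant response element, TGACNNNGC, occurs on either strand in 12.4% of all promoters and in 1 of 16 member promoters, a promoter of Ncoa4. No match says only that these letters are not in the window. Atf4 itself stood at 91.7 ± 1.48 CPM in sham (SD, n = 2) and 117 ± 2.27 in uIRI (n = 3), with all uIRI libraries above sham. Its log2 change of 0.35 ± 0.25 did not pass (edgeR, adjusted p = 0.259), and with library size alone it was 1.02 and passed (adjusted p = 0.00824). In uIRI+MSC Atf4 stood at 93.1 ± 30.6 CPM and overlapped both other groups.

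Slc3a2 (ENSMUSG00000010095, chr19:8706882-8723369, minus strand) encodes the heavy chain that anchors xCT and several other amino acid transporters in the membrane. It stood at 217 and 235 CPM in sham, 145, 164 and 154 in uIRI, and 234, 219 and 166 in uIRI+MSC. The uIRI libraries were the lowest, and uIRI+MSC 3 lay just above them while uIRI+MSC 1 and 2 lay within the sham range. Slc3a2 was lower in uIRI than in sham (-0.55 ± 0.17, adjusted p = 0.0217), a change opposite in direction to that of its partner chain Slc7a11. This call was lost without sham 1, sham 2, uIRI 1 or uIRI 3 (adjusted p between 0.0543 and 0.131) and with a replicate block (adjusted p = 0.0728), and with library size alone the value was 0.11. The excess of uIRI+MSC over uIRI, 0.42 ± 0.15, did not pass (adjusted p = 0.179). Against sham, uIRI+MSC differed by -0.13 ± 0.17 (adjusted p = 0.559), by 0.38 with library size alone and by 0.038 without uIRI+MSC 3.

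Gpx4 (ENSMUSG00000075706, chr10:80047166-80056439, plus strand) encodes the peroxidase that uses glutathione to reduce lipid peroxides in membranes. It stood at 254 and 193 CPM in sham, 66.6, 89.4 and 86.9 in uIRI, and 121, 99.2 and 51.8 in uIRI+MSC. Sham was above every other library, and the uIRI+MSC libraries spanned a wider range than uIRI on both sides. Gpx4 was 2.76-fold lower in uIRI than in sham, -1.46 ± 0.32 (adjusted p = 0.00433), and passed with library size alone as well (-0.79, adjusted p = 0.047). In uIRI+MSC it was lower than sham by a log2 change of -1.30 ± 0.32 (adjusted p = 0.0109), which did not pass without sham 1 (-1.05, adjusted p = 0.0984) or with library size alone (-0.77, adjusted p = 0.0636). Between uIRI+MSC and uIRI the difference was 0.17 ± 0.29 (adjusted p = 0.775), and -0.10 without uIRI+MSC 1.

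Aifm2 (ENSMUSG00000020085, chr10:61715263-61739260, plus strand) encodes FSP1, which reduces ubiquinone and so defends membranes without glutathione. It stood at 29.7 and 29.3 CPM in sham, 24.2, 25.2 and 29.8 in uIRI, and 27.3, 25.4 and 21.0 in uIRI+MSC. The uIRI libraries overlapped sham through uIRI 3, and all uIRI+MSC libraries were below sham. None of its 3 comparisons passed, with -0.16 ± 0.16 in uIRI against sham (adjusted p = 0.413), -0.26 ± 0.16 in uIRI+MSC against sham (adjusted p = 0.217) and -0.10 ± 0.14 in uIRI+MSC against uIRI (adjusted p = 0.729). With library size alone the first was 0.50 and passed (adjusted p = 0.0264), and the second was 0.26; without uIRI+MSC 3 the last was 0.012. Aifm2 shares exon bases with H2afy2 on the opposite strand, which had 3529 counts in all against 3920 for Aifm2. The sources used here do not say whether counting used strand, so reads of these genes may not be told apart.

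Acsl4 (ENSMUSG00000031278, chrX:142317993-142390535, minus strand) encodes the acyl-CoA synthetase that loads arachidonic and related fatty acids for entry into phospholipids, the substrates of peroxidation. It stood at 56.5 and 67.7 CPM in sham, 39.9, 40.7 and 88.8 in uIRI, and 73.6, 83.1 and 99.3 in uIRI+MSC. The uIRI libraries lay on both sides of sham, with uIRI 3 more than any sham library and uIRI 1 and 2 below both. The change in uIRI against sham was -0.14 ± 0.34 (adjusted p = 0.75). Without uIRI 3 it was -0.62 and passed (adjusted p = 0.0247), and its sign turned without sham 2 (0.021), without uIRI 1 (0.062), without uIRI 2 (0.051) or with library size alone (0.52). All uIRI+MSC libraries were above sham, by 0.46 ± 0.34 (adjusted p = 0.311), which passed only with library size alone (0.96, adjusted p = 0.0417) among the alternatives tried. The difference from uIRI was 0.60 ± 0.30 (adjusted p = 0.302).

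In uIRI+MSC against uIRI, edgeR called 0 of the 10 genes and 0 of all tested genes (0%). At an unadjusted p under 0.05 there were 3 of the 10, Hmox1 and Slc3a2 with higher and Slc7a11 with lower values in uIRI+MSC, and 3418 of all 16576 genes. DESeq2 and limma-voom also called 0 of the 10, while DESeq2 called 8.23% of all genes. Libraries did not overlap for 3 of the 10, Hmox1, Slc3a2 and Fth1, all with higher values in uIRI+MSC, against 26.9% of all genes. The median of the 10 was 0.27, beside -0.0079 for all genes.

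In uIRI+MSC against sham, 5 of the 10 passed, where 42.4% of all genes did. Slc7a11 was higher (22.1% of all genes), and Tfrc, Fth1, Gpx4 and Ncoa4 were lower (20.3% of all genes). Libraries did not overlap for 8 of the 10, against 64.2% of all genes, and the median was -0.46 beside 0.035 for all genes. Without sham 1, which left sham with 1 library, fewer of the 10 passed, and fewer of all genes did too. With library size alone, which moved the median of all genes to 0.55, 4 passed (52.8% of all genes), Slc7a11 and Acsl4 higher (44.6%) and Tfrc and Fth1 lower (8.16%). This comparison shares its sham libraries with that of uIRI against sham and its uIRI+MSC libraries with that of uIRI+MSC against uIRI, so the comparisons are not independent.

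**Figure D2:**
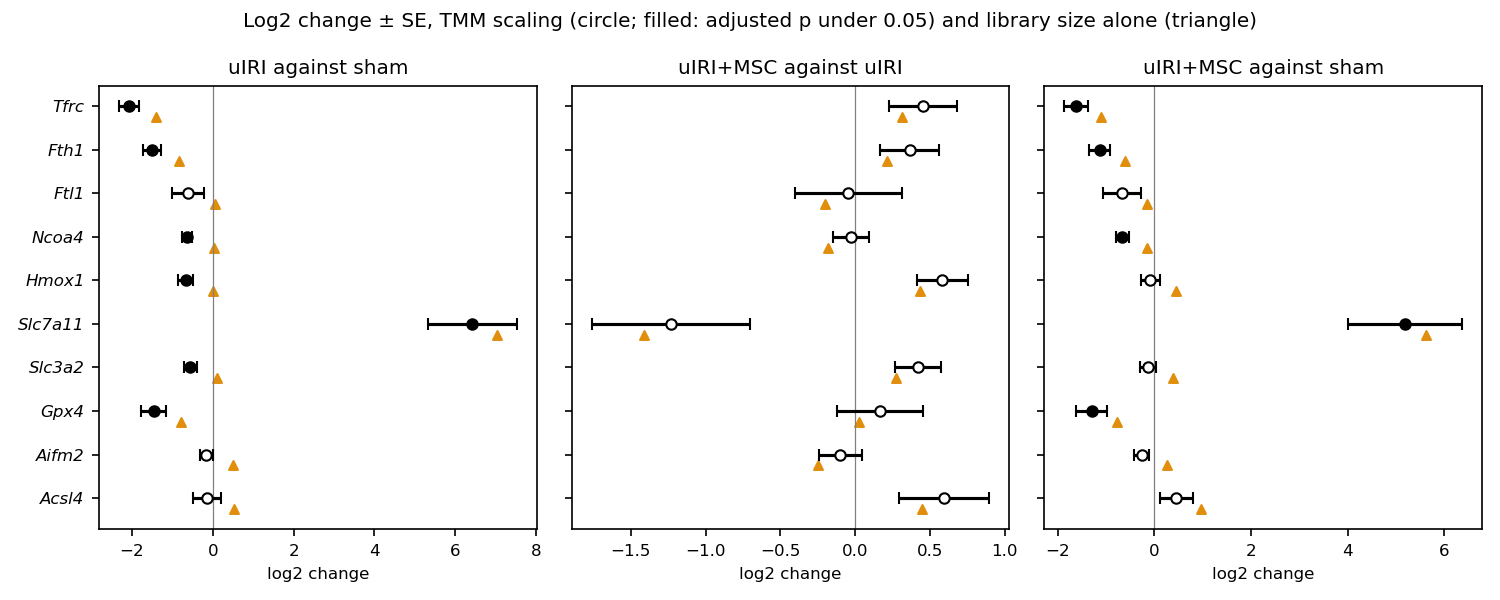
Log2 change (x axis, different range in each panel) of the 10 genes in the 3 comparisons, with circles for TMM scaling (± SE, filled where the adjusted p was under 0.05) and triangles for library size alone. In uIRI against sham the triangles of Ftl1, Ncoa4, Hmox1, Slc3a2, Aifm2 and Acsl4 fall on the other side of 0 from the circles, whereas Tfrc, Fth1 and Gpx4 stay below 0 and Slc7a11 above it.

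Per unit of gene length the 10 genes spanned a wide range of levels. In FPKM, which the authors scaled by length and depth but not by TMM, the sham means ran in the order Fth1 3809 ± 352 (SD, n = 2), Ftl1 419 ± 30.9, Gpx4 58.2 ± 7.96, Slc3a2 25.1 ± 2.90, Hmox1 17.2 ± 3.83, Tfrc 14.2 ± 0.0699, Acsl4 7.18 ± 1.32, Ncoa4 4.52 ± 0.139, Aifm2 4.29 ± 0.202 and Slc7a11 0.00224 ± 0.00317. Hmox1 and Tfrc, and Ncoa4 and Aifm2, were neighbours that differed by less than the summed SD of the pair. In uIRI the order of the first 5 means was the same, from Fth1 (2148 ± 142, n = 3) to Hmox1 (17.4 ± 0.795). The means of Acsl4 (10.3 ± 4.97) and Aifm2 (6.09 ± 0.613) stood above Tfrc (5.35 ± 1.56) there. Both differed from Tfrc by less than the summed SD, and in uIRI 2 Tfrc (6.86) was above Aifm2 (5.63). In uIRI+MSC the first 6 means were again in that order and Tfrc (6.64 ± 0.566) stood above Aifm2 (5.12 ± 0.752). Gpx4 (34.1 ± 13.7) and Slc3a2 (32.7 ± 6.23), and Slc3a2 and Hmox1 (23.4 ± 3.98), differed there by less than the summed SD. In uIRI+MSC 3 Gpx4 (19.0) was below Slc3a2 (25.6). Slc7a11 was last in every group, at 0.347 ± 0.254 in uIRI and 0.133 ± 0.0494 in uIRI+MSC. The Fth1 level rests on a gene length of 866 bases implied by the ratio of FPKM to counts, and that of Ftl1 on 2826, while their annotated exons cover 3469 and 1340 bases. Implied and annotated lengths differed for the other members as well, such as 6641 against 3529 bases for Slc3a2 and 6932 against 9365 for Ncoa4. The order of the 10 genes is limited by that, and differences between groups are not.

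A scaling factor shared by all genes of a library cancels in the ratio of a pair of them, apart from the pseudocount, which weighs on the pair with Slc7a11. A trend with gene length within a library, given further below, does not cancel. Each pair joins genes of different length classes, and the part of this trend in the ratios was not tested. With 3 libraries against 2 the exact two-sided permutation test cannot go below p = 0.2, and with 3 against 3 not below 0.1, so none of the 12 ratio tests could pass 0.05, and the smallest adjusted p was 0.3. All are given as log2 of (FPKM + 0.1).

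The ratio of Acsl4 to Gpx4, the synthetase that supplies peroxidation against the enzyme that repairs it, was -3.33 and -2.68 in sham, -1.91, -2.31 and -1.15 in uIRI, and -1.90, -1.44 and -0.25 in uIRI+MSC. Sham lay below all 6 injured libraries, and uIRI+MSC 3 was the highest. The difference from sham was 1.22 in uIRI and 1.81 in uIRI+MSC (exact permutation p = 0.2 for each, the smallest possible).

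The ratio of Fth1 to Ftl1, heavy to light ferritin, was 3.35 and 3.01 in sham, 1.82, 2.69 and 2.47 in uIRI, and 2.35, 2.61 and 3.60 in uIRI+MSC. All uIRI libraries were below sham, with a difference of -0.85 (exact permutation p = 0.2), and uIRI+MSC lay on both sides of it. The ratio of Tfrc to Fth1, import to storage, was -8.14 and -7.96 in sham, -9.02, -8.32 and -8.66 in uIRI, and -8.67, -8.56 and -8.34 in uIRI+MSC. Sham was the highest, by 0.61 over uIRI and 0.47 over uIRI+MSC (exact permutation p = 0.2 for each). Both messengers were lower in the injured groups, also with library size alone.

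The ratio of Slc7a11 to Slc3a2, light to heavy chain of the antiporter, was -5.18, -6.38 and -6.65 in uIRI and -7.62, -7.32 and -6.49 in uIRI+MSC. The groups overlapped through uIRI+MSC 3, with a difference of -1.07 (exact permutation p = 0.2) that was -0.48 with a pseudocount of 1 FPKM and -1.44 with raw counts plus 0.5. In sham the ratio, -7.85 and -8.03, is set by the pseudocount because Slc7a11 had 1 count in all, and the excess of uIRI over sham was 1.87, 0.30 and 6.15 under the same 3 settings.

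**Figure D3:**
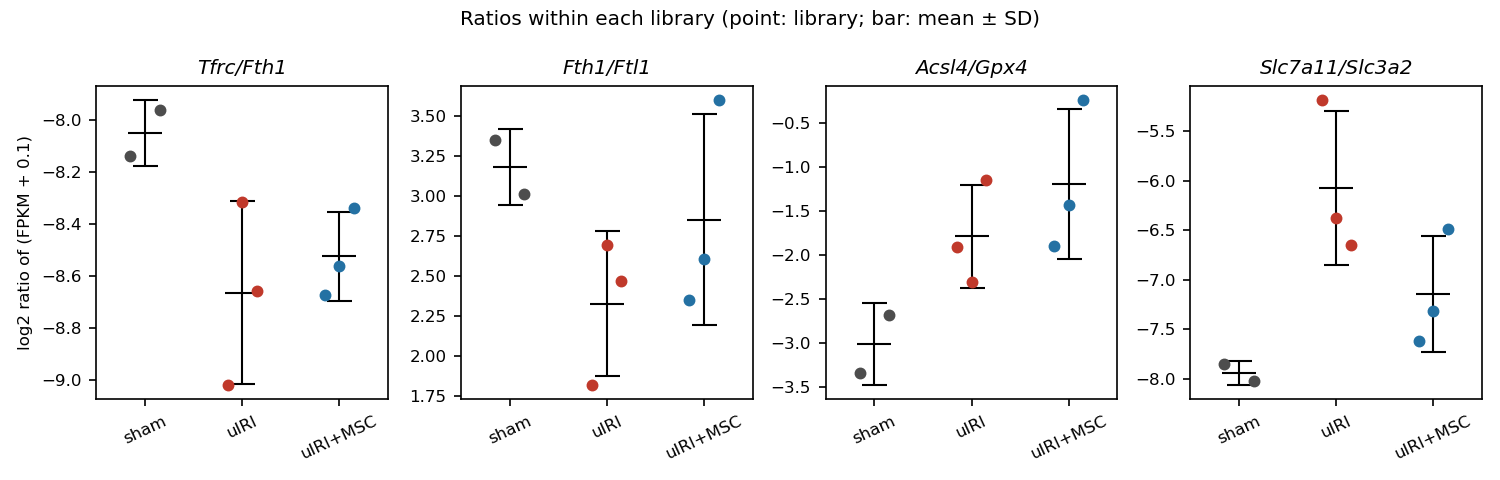
Log2 ratio of (FPKM + 0.1) within each library for 4 pairs of genes, with 1 point per library and the mean ± SD of each group (axes do not start at 0). For Acsl4 to Gpx4 the sham libraries, -3.33 and -2.68, lie below all others, and for Slc7a11 to Slc3a2 the sham points are set by the pseudocount.

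A further 88 genes of the pathway were listed by role. The table held 85 of them under the listed symbol and 83 could be tested. In uIRI against sham, 66 of the 83 passed (54.6% of all genes), 19 higher (28.3% of all genes) and 47 lower (26.3%), with a median log2 change of -0.55 beside 0.061 for all genes. With library size alone, 31 were higher (54.6% of all genes) and 26 lower (12%). In uIRI+MSC against sham, 14 were higher (22.1% of all genes) and 41 lower (20.3%), and with library size alone 29 (44.6%) and 20 (8.16%). Under both scalings and in both comparisons the share of the 83 that was lower exceeded that of all genes, and the share that was higher was below it. The lists were chosen with earlier results of these data known, so these shares are a description. Whether the 83 differ from all genes was not tested. Between uIRI+MSC and uIRI, edgeR and limma-voom called 0 of the 83 and DESeq2 called 17 (8.23% of all genes), 15 of them higher. At an unadjusted p under 0.05, edgeR had 30 of the 83, of which 24 were higher, and 3418 of all 16576 genes. The counts of each list in uIRI against sham, given next, stand beside the same shares of all genes, 28.3% higher and 26.3% lower, or 54.6% and 12% with library size alone.

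The genes around iron transport moved both ways. Of 20 tested, 7 were higher and 10 lower in uIRI than in sham, with a median of -0.32, and 9 higher and 3 lower with library size alone (median 0.35, beside 0.73 for all genes). With library size alone these counts were near the shares of all genes. Slc40a1, which carries the iron-responsive element printed above and exports iron, was at 61.0 ± 10.3 CPM in sham, 105 ± 7.87 in uIRI and 129 ± 9.17 in uIRI+MSC. It was higher in both injured groups (0.78 ± 0.15 and 1.08 ± 0.15, adjusted p = 0.00238 and 0.000922). Thus the messenger of the exporter was higher where that of the importer Tfrc was lower. Steap4, a metalloreductase, was higher in uIRI (2.35 ± 0.25), as was the plasma ferroxidase gene Cp, and Slc39a8, a metal importer, was lower (-2.84 ± 0.37). Aco1, which encodes iron regulatory protein 1, one of the proteins that bind the elements printed above, was at 686 ± 124 CPM in sham, 188 ± 55.8 in uIRI and 305 ± 26.8 in uIRI+MSC. It was lower in uIRI (-1.87 ± 0.25, adjusted p = 0.000353) and in uIRI+MSC (-1.17 ± 0.25, adjusted p = 0.00563). Aco1 and the metalloreductase gene Steap2 had higher values in uIRI+MSC than in uIRI with no overlap (0.70 ± 0.22 and 0.64 ± 0.16), and neither passed (adjusted p = 0.146 and 0.118).

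Haem genes were 3 higher and 5 lower of 10 in uIRI (5 and 2 with library size alone). Lrp1, a receptor that takes up haem bound to haemopexin, was higher (3.06 ± 0.25), and so was the haemoglobin scavenger gene Hp (3.28 ± 0.57). Alas1, the first enzyme of haem synthesis, and Fech, the last, which inserts iron, were lower (-1.22 ± 0.20 and -1.56 ± 0.14). Hmox1 was lower in the same comparison, but not with library size alone (0.012).

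Of 17 genes that shape phospholipid fatty acids, 3 were higher and 10 lower in uIRI (5 and 8 with library size alone), with a median of -1.15. Lpcat3, which inserts the fatty acids that Acsl4 activates into phospholipids, fell by 1.27 ± 0.14 on the log2 scale (adjusted p = 0.000143). Agps and Far1, of ether lipid synthesis, were lower as well (-2.37 ± 0.25 and -1.48 ± 0.14), and the acyltransferase gene Mboat1 was higher (1.75 ± 0.16). The desaturase gene Scd2 was 230 ± 39.6 CPM in sham, 391.7 ± 54.2 in uIRI and 212 ± 24.1 in uIRI+MSC. The last difference, -0.89 ± 0.16, was without overlap and did not pass with edgeR (adjusted p = 0.111), and passed with DESeq2 (-0.91, adjusted p = 0.000171).

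The genes of glutathione and NADPH supply were the list with the lowest median of the 6, -1.97 over 14 genes in uIRI against sham. Of these 10 were lower and 0 higher (9 lower and 2 higher with library size alone). Cbs and Cth, which make cysteine from homocysteine, were lower (-3.99 ± 0.35 and -3.20 ± 0.34), and so was Gsr, which regenerates glutathione (-1.73 ± 0.15). Slc7a11, whose product imports cystine, was higher in the same libraries, but at 0.347 ± 0.254 FPKM in uIRI it was the lowest of the 10 genes. In uIRI+MSC the list stood between the other groups, with a median of -1.19 against sham and 0.80 against uIRI. The 10 proximal tubule markers had medians of -2.83 in uIRI against sham, -1.63 in uIRI+MSC against sham and 1.22 in uIRI+MSC against uIRI. This course is thus not particular to the list, and how far the list follows tubule content was not tested. For 10 of the 14 the uIRI+MSC libraries were all above those of uIRI, where 26.9% of all genes did not overlap in either direction, and edgeR called 0 of them. DESeq2, which called 8.23% of all genes, called Cbs, Cth, Gclc, Gclm, Ggt1, Gsr, Idh1 and Me1 higher. Me1, a source of NADPH, was at 889 ± 156 CPM in sham, 99.0 ± 43.1 in uIRI and 258 ± 31.7 in uIRI+MSC, with no overlap between the groups.

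Of 9 genes of radical trapping outside glutathione, the setting in which Aifm2 acts, 1 was higher and 7 lower in uIRI (2 and 3 with library size alone). Coq2, of ubiquinone synthesis, was at 110 ± 5.39 CPM in sham, 51.7 ± 4.94 in uIRI and 56.2 ± 6.99 in uIRI+MSC, lower in uIRI by a log2 change of -1.09 ± 0.15 (adjusted p = 0.000367). Dhcr7, of sterol synthesis, was lower too (-0.72 ± 0.12, which was -0.046 with library size alone). Aifm2 itself did not pass on the TMM scaling.

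Of 13 regulators and response genes, 5 were higher and 5 lower in uIRI (8 and 1 with library size alone). Ptgs2, often used as a transcript that accompanies ferroptosis, was at 0.332 ± 0.0795 CPM in sham, 3.13 ± 0.0959 in uIRI and 1.88 ± 0.482 in uIRI+MSC. It was higher in uIRI than in sham (3.21 ± 0.41, adjusted p = 0.000306), and in uIRI+MSC its values were below uIRI without overlap (-0.75 ± 0.27, adjusted p = 0.183). Trp53 was higher in uIRI (1.07 ± 0.15), and Cisd1, an iron-sulfur protein of the outer mitochondrial membrane, was lower (-2.39 ± 0.32).

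**Figure D4:**
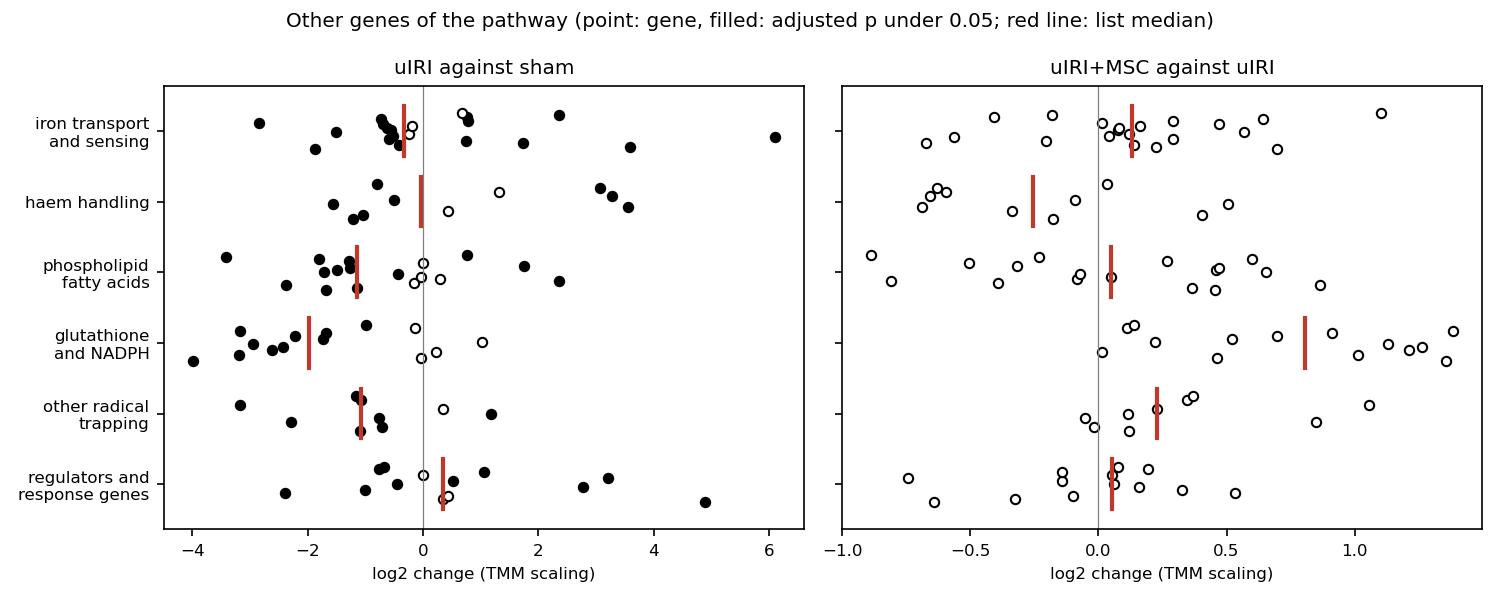
Log2 change (x axis, TMM scaling) of each tested gene in the 6 lists of the wider pathway, with 1 point per gene, filled where the adjusted p was under 0.05, and a red line at each median. In uIRI against sham the median was -1.97 for glutathione and NADPH, and no point in uIRI+MSC against uIRI is filled; with library size alone the iron, haem and regulator medians of uIRI against sham were 0.35, 0.64 and 1.02.

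Markers of several cell types also differed between the groups. Of all tested genes, 28.3% were higher and 26.3% lower in uIRI than in sham. Summed CPM of 10 proximal tubule markers were 24571 to 27177 across sham libraries, 1508 to 4868 across uIRI libraries and 7344 to 8997 with MSC, and 10 of 10 were lower in uIRI than in sham. Macrophage markers ran from 226 to 265, 3187 to 4816 and 1879 to 2496 in the same order, with 10 of 11 entries higher in uIRI (Itgam is listed under a pair of identifiers). Injured tubule markers ran from 1145 to 1569, 6865 to 9407 and 12511 to 17833, with 8 of 8 higher, and fibroblast markers from 234 to 328, 2605 to 6104 and 1487 to 2754, with 6 of 6 higher. Red cell markers ran from 127 to 427, 52.6 to 82.0 and 54.0 to 165, with 1 of 7 tested lower. These sums include Slc4a1, which was also listed as a collecting duct marker. Slc4a1 ran from 65.5 to 113 CPM in sham and from 6.33 to 16.1 in uIRI. It was the only red cell marker whose sham and uIRI libraries did not overlap. Summed endothelium markers overlapped between the groups, at 531 to 574, 495 to 538 and 441 to 542, with 1 of 5 lower in uIRI. Taken singly, sham and uIRI libraries did not overlap for 5 of 5, against 77.1% of all genes. Pecam1, Cdh5 and Emcn had higher values in uIRI, and Kdr and Plvap lower ones, so the sum hides opposite directions. Thick limb and distal tubule markers ran from 10327 to 12020, 2281 to 3635 and 1263 to 3368, with 6 of 6 lower. No marker of these lists was at 0 in every library. Lists of other cell types are not given. In bulk tissue fewer cells of a type and less RNA per cell cannot be told apart. The part of these cell types in the changes of the 10 genes and of the pathway lists was not tested.

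Depth ran from 11592986 to 24300112 counts, and TMM factors were 0.706 and 0.766 in sham and 1.03 to 1.22 in the other groups. The library uIRI+MSC 3, with the fewest counts, held the lowest Gpx4 and Ftl1 of its group and the highest Acsl4. When all tested genes were put in 5 classes by length, its median log2 difference from the rest of its group was -0.23 in the shortest class and 0.18 in the longest, against 0.16 and -0.091 for uIRI+MSC 1. Fth1 lies in the shortest class and Gpx4, Ftl1 and Hmox1 in the next. Tfrc and Slc7a11 lie in the longest class, and Acsl4, Slc3a2 and Ncoa4 in the one before it. The part of this trend in the values of these genes and in their ratios was not tested. Without uIRI+MSC 3 the numbers of the 10 genes called were 7 for uIRI against sham, 5 for uIRI+MSC against sham and 0 for uIRI+MSC against uIRI, as with it. Of the 16659 genes tested there, 5198 were higher and 4665 lower in the first comparison. In the second 3792 were higher and 3122 lower, and in the third 2 and 0.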

How the data were processed

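The deposited table gives raw counts per gene, made by the authors and not normalized per the file headers, and FPKM values, which per the file headers the authors scaled by gene length and depth. The submitters' processing notes list build GRCm38 and, without roles, HISAT2 2.0.4, StringTie 1.3.3b, edgeR 3.2.0, SAMtools 1.9, Bowtie2 2.2.6 and FastQC 0.10.1. The sources used here do not give the strand, the annotation release or the counting program.

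Counts of all 8 libraries were fitted in edgeR 4.0.16 under R 4.3.3 (filterByExpr with a minimum count of 10, TMM, glmQLFit with legacy=TRUE, glmQLFTest, 5 residual degrees of freedom), and p-values were adjusted by Benjamini-Hochberg over the 16576 tested genes. Each SE was obtained by dividing the absolute log2 change by the root of F. The same counts were also run through limma-voom (limma 3.58.1) and DESeq2 1.42.0, and the fit was tested on simulated data. Ratios used exact permutation tests (scipy 1.17.1), adjusted over 12. Replicate libraries had a chi-square of 18.7 to 72.9 per gene against counting noise, so none was the same library sequenced again. These values were taken on raw totals without TMM. They cannot show whether replicates came from different mice.

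The 10 genes and the lists were chosen with earlier results of these data known. The genes named are the 10, then in each list of the pathway the 4 with the smallest p in uIRI against sham and the 2 with the smallest in uIRI+MSC against uIRI, and for each of the 10 the 2 genes nearest in pattern. A gene that the rule takes in is not reported here. Slc40a1, Atf4, Trf, Adck3, Slc4a1 and the genes that DESeq2 called in the glutathione list were named after their values were seen. The other alternatives were scaling by library size alone or by median-of-ratios factors, a filter of 50 counts in 2 libraries or none, only the 2 groups compared, a replicate block, and leaving out each library in turn, which for the Slc7a11 counting ratio was added after seeing the data. For ratios they were a pseudocount of 1 FPKM and raw counts with 0.5 added. The gene spans of 8 of the 10 equal those of GENCODE M21, all but Hmox1 and Fth1. Figures were drawn with matplotlib 3.10.9.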

Additional observations from a re-analysis of the deposited data

How the results depend on the processing

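Of 480 values of the 10 genes under the alternatives, 446 kept their direction and their side of the threshold, 21 turned in direction, 10 lost and 3 gained a call. The turns stand beside each gene above. With library size alone they were, in uIRI against sham, Acsl4 (0.52), Slc3a2 (0.11), Aifm2 (0.50), Hmox1 (0.012), Ftl1 (0.058) and Ncoa4 (0.031), and in uIRI+MSC against sham Slc3a2 (0.38), Aifm2 (0.26) and Hmox1 (0.44). Values that turned when 1 library was left out ran from -0.62 to 0.062 for Acsl4 in uIRI against sham, in uIRI+MSC against uIRI from -0.10 to 0.46 for Gpx4, -0.18 to 0.012 for Aifm2, -0.48 to 0.29 for Ftl1 and -0.10 to 0.040 for Ncoa4, and in uIRI+MSC against sham from -0.23 to 0.038 for Slc3a2 and -0.31 to 0.27 for Hmox1. Numbers of the 10 called ran from 5 to 7 in uIRI against sham, were 0 in uIRI+MSC against uIRI and ran from 3 to 6 in uIRI+MSC against sham when 1 library was left out. Pathway genes called in uIRI+MSC against uIRI were 0 with edgeR and 17 with DESeq2, which called 1364 of all genes where edgeR called 0; the cause was not tested. The Slc7a11 to Slc3a2 ratio of uIRI+MSC against sham was -0.18 with a pseudocount of 1 FPKM, and the Tfrc to Fth1 ratio of uIRI+MSC against uIRI ran from -0.038 to 0.31. Correlations of same-numbered libraries ran from -0.21 to 0.11, and those of differently numbered ones from -0.20 to 0.21. They use deviations from means of 2 or 3 libraries and are tied by this, so they cannot show whether pairs exist. The numbers were not taken as pairs. With a replicate block 6, 0 and 5 of the 10 and 61, 0 and 47 pathway genes passed. Of all 16576 genes, 4105 were then higher and 3854 lower in uIRI than in sham. In uIRI+MSC against sham these were 3069 and 2684, and in uIRI+MSC against uIRI 0 and 0. Where sham was left with 1 library, it was assumed to vary like the other groups. Fewer of all genes were then called against sham, in both directions, so a smaller number of the 10 is no result about them. Depth limits Slc7a11, with 1 count in sham, most.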

Other observations

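Transferrin and the ubiquinone kinase gene Coq8a were listed under symbols that the table does not use, and were looked up afterwards as Trf and Adck3. Trf, the messenger of the iron carrier that binds the product of Tfrc, stood at 19.8 ± 0.686 CPM (SD, n = 2) in sham, 179 ± 20.8 (n = 3) in uIRI and 122 ± 24.1 (n = 3) in uIRI+MSC. It was higher in uIRI than in sham by a log2 change of 3.17 ± 0.22 (adjusted p = 2.85e-05 by edgeR) and in uIRI+MSC by 2.62 ± 0.21 (adjusted p = 8.84e-05). So the messenger of the carrier was higher in the kidneys in which that of its receptor Tfrc was lower. Trf was lower in each uIRI+MSC library than in any uIRI library, by -0.55 ± 0.17, which did not pass (adjusted p = 0.133). Adck3 was lower in uIRI (-2.40 ± 0.34, adjusted p = 0.00052), and its uIRI+MSC libraries lay between the other groups with no overlap, 1.32 ± 0.31 above uIRI (adjusted p = 0.111).

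The genes nearest to each of the 10 in pattern were found by the root mean square (RMS) difference of centred log2 CPM over the 8 libraries, among about 7166 genes with a mean FPKM of at least 5, and are given as a description with no test. Those of Fth1 were Fars2 (RMS 0.0687) and Iscu (0.0741), the scaffold of iron-sulfur cluster assembly. Those of Tfrc were Apoo (0.0754) and mt-Co2 (0.111), a subunit of cytochrome oxidase encoded in mitochondrial DNA. Gpx4 was nearest to Mien1 (0.0465) and Atp5d (0.0815), a subunit of ATP synthase, and Ftl1 to Bad (0.186) and Grcc10 (0.231). Ncoa4 was nearest to Zfyve9 (0.0721) and Cacybp (0.0813), Slc3a2 to Klhl36 (0.0884) and Wdr45 (0.0928), and Aifm2 to Zdhhc7 (0.0239) and Foxo4 (0.0532). Hmox1 lay nearest to Dusp4 and Tmem63b (0.159 each) and Acsl4 to Nr1d2 (0.202) and Nt5c2 (0.254). Slc7a11 had the most distant neighbours, Lox (0.380), which cross-links collagen, and Lilr4b (0.431), a receptor of myeloid cells.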
